A study of Mus musculus with 6 samples.

Results

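The genes of the vascular endothelium and of angiogenic signalling, *Pecam1*, *Cdh5*, *Esam*, *Jam2*, *Nos3*, *Vegfa*, *Flt1*, *Kdr*, *Tie1* and *Tek*, were described, 10 in all, in gastrocnemius muscle of HrasG12V mice and WT littermates. They were taken by gene symbol, and all 10 were found among the 23997 symbols in each library. The HrasG12V group held mice 2276, 2278 and 2279 (genotype HrasG12V/+, strain Caggs-Cre+/HrasG12V/+) and the WT group mice 2277, 2280 and 2281 (genotype given as Hras+/+, strain as Caggs-Cre-/HrasflG12V/+), all untreated and 21 days old. By the strain label WT mice carried the floxed allele without Cre, while in HrasG12V mice Cre driven by the CAG promoter, which is active in nearly all tissues, had switched 1 *Hras* allele to the mutant form under its own promoter. According to the methods, both parent lines were kept on a mixed SWR/J, 129S1/SvImJ and C57BL/6J background and the muscle was sequenced as 1 mRNA library per mouse, so n = 3 mice per genotype. The values are FPKM (fragments scaled to transcript length and library size), which can be compared between genes because they are given per length. The methods give 1 nominal read number for all libraries, but the number of reads behind each FPKM is unknown, so the precision is known only from the spread between mice.

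Endothelial cells line all blood vessels, and in muscle most of them form the capillaries that run along the fibres. The growth factor Vegfa, made by muscle fibres and other cells around the vessels, binds Kdr, the main signalling receptor of the endothelium, and Flt1, which binds the ligand more tightly and signals less. Tek is the receptor of the angiopoietins, and Tie1 is its partner, for which no ligand of the same kind is established. Pecam1, Cdh5 (VE-cadherin), Esam and Jam2 hold neighbouring endothelial cells together, and Nos3 makes the nitric oxide that relaxes vessels. A bulk library cannot tell fewer endothelial cells from less RNA per cell, and this holds for every value given here.

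All 10 genes had a negative log2 fold change in HrasG12V muscle, with a median of -0.48 against -0.03 over the 13359 genes tested (53.4% of which were negative). Of the 10, 5 genes had an unadjusted limma p below 0.05 and were lower in HrasG12V muscle (*Flt1*, *Jam2*, *Cdh5*, *Tie1* and *Nos3*), where 4.99% of all genes tested were lower at that limit. None of the 10 had a limma adjusted p below 0.05, a limit passed by 8 of all genes tested (0.0599%). Without HrasG12V mouse 2276, 6 of the 10 passed the adjusted limit, in a fit where 1291 of all genes tested (9.66%) did. In 6 genes every HrasG12V mouse was below every WT mouse, an order held by 10.4% of all genes tested, and in the other 4 the genotypes overlapped. None of the 10 was higher at the unadjusted limit (5.18% of all genes tested) or higher in every HrasG12V mouse (8.11%). In an exact two-sided permutation test of 3 against 3 mice the smallest possible p is 0.1, which the 6 genes without overlap reached. Any gene without overlap must reach it, so this test adds nothing to the order of the mice. *Flt1*, *Jam2*, *Cdh5* and *Tie1* are in a list of transcripts that the study itself drew from the same libraries, so their direction is not independent evidence. All 10 passed the filter of a mean of 0.5 FPKM over the 6 libraries, and none was listed at 0 in any library.

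Some facts of the libraries touch these values. *Hras* itself stood at 36.8, 36.0 and 51.8 FPKM in the WT group and at 58.8, 28.9 and 16.0 FPKM in HrasG12V mice 2276, 2278 and 2279 (log2 fold change -0.44, limma adjusted p = 0.797), and FPKM sums both alleles. The FPKM of a library summed to 491045 to 547122 in WT mice, to 429351 and 413020 in mice 2278 and 2279 and to 814013 in mouse 2276. Abundant muscle genes mark the tissue, with *Tnni2* at 5442 to 17112 FPKM and *Pvalb* at 10828 to 32969 FPKM, but *Acta1* and *Myh4* were listed at 0 in all 6 libraries, *Ckm* in 5 of them and *Tnnt3* in mouse 2276, so an exact 0 can be a failed estimate. The 10 B and T cell genes summed to 103 and 96.1 FPKM in mice 2278 and 2279, to 2.24 FPKM in mouse 2276 and to 1.33 to 1.79 FPKM in WT mice.

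The order of the levels in WT muscle ran from *Vegfa* (79.6 ± 15.5 FPKM) over *Cdh5* (63.9 ± 4.33), *Pecam1* (47.6 ± 6.75), *Esam* (42.0 ± 3.22), *Tie1* (23.6 ± 1.94), *Kdr* (19.0 ± 2.94), *Jam2* (19.0 ± 0.240), *Flt1* (17.7 ± 1.20) and *Tek* (11.8 ± 1.78) to *Nos3* (6.54 ± 0.492 FPKM; SD, n = 3 mice). Neighbours whose WT ranges overlapped were *Pecam1* and *Esam*, *Kdr* and *Jam2*, and *Jam2* and *Flt1*. In HrasG12V muscle the order of the means was the same except that *Kdr* (15.9 ± 1.15 FPKM) stood before *Tie1* (15.7 ± 0.829 FPKM; SD, n = 3), with overlapping ranges. *Cdh5* was above *Pecam1* in all 3 WT mice and in 2 of the 3 HrasG12V mice.

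**Figure D1:**
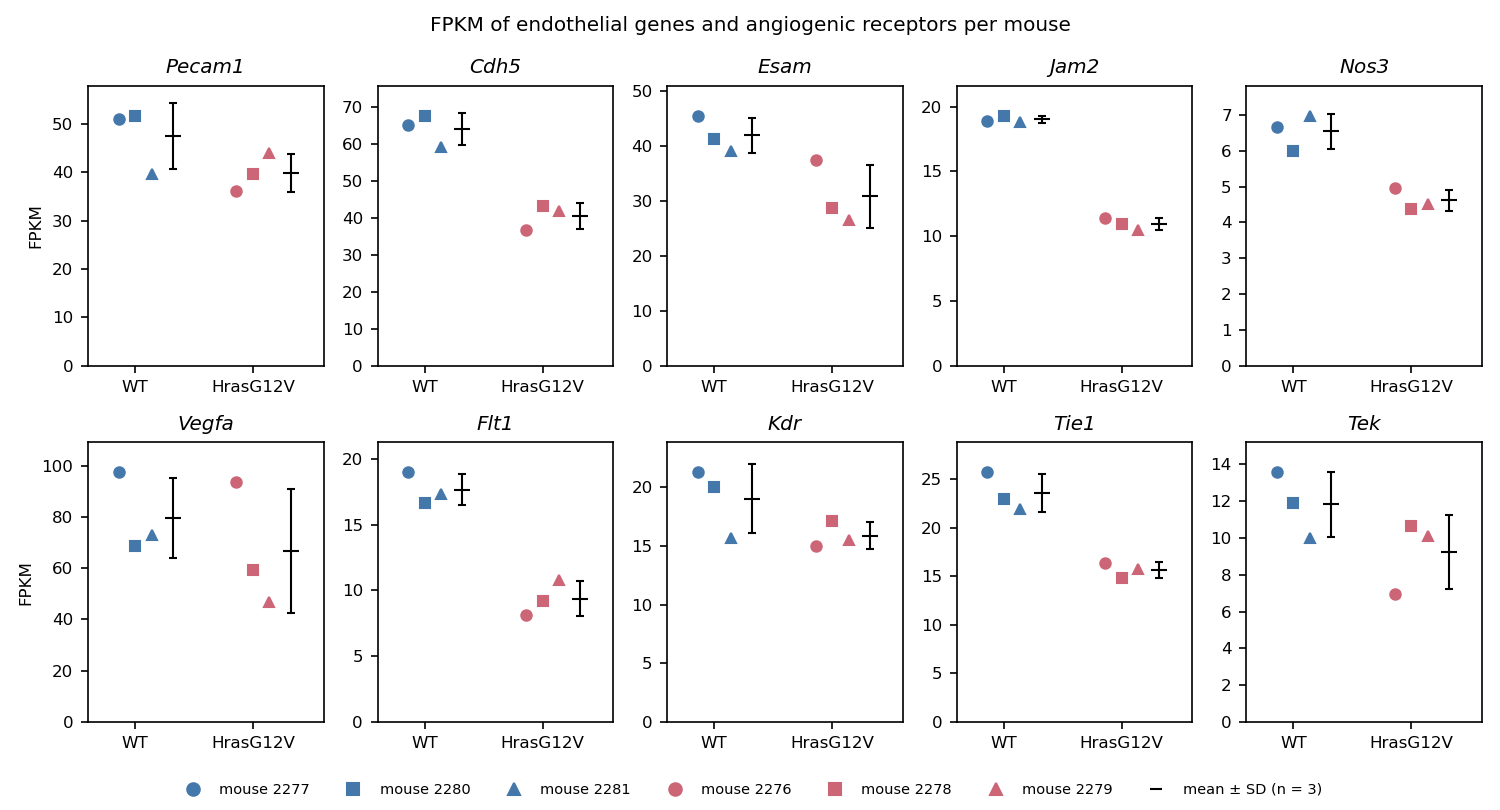
FPKM (y axis, linear, from 0) of each gene in 3 WT and 3 HrasG12V mice, with 1 point per mouse and the mean ± SD (n = 3) beside the points. The genotypes stand apart for *Cdh5*, *Esam*, *Jam2*, *Nos3*, *Flt1* and *Tie1* and overlap for *Pecam1*, *Vegfa*, *Kdr* and *Tek*.

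*Flt1*, placed on chromosome 5 (GRCm38, as all positions here) at 147561604 to 147726011 on the minus strand, was at 19.0, 16.6 and 17.3 FPKM in the WT group (always in the order of mice 2277, 2280 and 2281). It was at 8.13, 9.18 and 10.8 FPKM in HrasG12V mice 2276, 2278 and 2279. The highest HrasG12V mouse was thus 5.86 FPKM below the lowest WT mouse, and the mean was 53.0% of the WT mean. The log2 fold change was -0.91 (standard error 0.16, 95% confidence interval -1.31 to -0.52, limma adjusted p = 0.288), the largest decrease among the 10 genes. Dropping single mice gave -1.02 to -0.82, and *Flt1* passed the unadjusted limit in all 6 of these fits.

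*Kdr*, the other VEGF receptor described, lies on chromosome 5 from 75932827 to 75978458 on the minus strand. It was at 21.3, 20.1 and 15.7 FPKM in the WT mice and at 15.0, 17.2 and 15.5 FPKM in the HrasG12V mice. WT mouse 2281 fell within the HrasG12V range. Its log2 fold change was -0.25 (95% confidence interval -0.67 to 0.17, limma adjusted p = 0.680), an interval that holds both no change and a decrease of over 1.5-fold.

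*Vegfa*, on chromosome 17 from 46016993 to 46032369 on the minus strand, was at 97.4, 68.7 and 72.8 FPKM in WT mice and at 93.7, 59.3 and 46.9 FPKM in HrasG12V mice. Mouse 2276 was above 2 of the 3 WT mice, and mice 2278 and 2279 were below all of them. The log2 fold change of -0.30 (95% confidence interval -1.04 to 0.44, limma adjusted p = 0.791) did not pass either limit. Without mouse 2276 it was -0.58 and passed the unadjusted limit, without mouse 2279 it was -0.08 and without WT mouse 2277 it was -0.15. With mouse 2276 as the sole HrasG12V library it was 0.25. No other of the 10 genes changed direction under any alternative tried.

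*Tie1* lies on chromosome 4 from 118471191 to 118490061 on the minus strand. It was at 25.7, 23.0 and 22.0 FPKM in WT mice and at 16.4, 14.8 and 15.8 FPKM in HrasG12V mice, so that 5.56 FPKM separated the genotypes. The fitted log2 fold change was -0.58 (standard error 0.15, 95% confidence interval -0.95 to -0.22, limma adjusted p = 0.382), and *Tie1* passed the unadjusted limit whichever mouse was dropped.

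*Tek*, on chromosome 4 from 94739289 to 94874976 on the plus strand, was at 13.6, 11.9 and 10.01 FPKM in WT mice and at 6.94, 10.6 and 10.1 FPKM in HrasG12V mice. Mouse 2276 was the lowest, and the other HrasG12V mice lay within the WT range. Its log2 fold change was -0.37 (95% confidence interval -0.89 to 0.16, limma adjusted p = 0.624).

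The upstream sequences of receptor genes are shown because the VEGF receptor *Flt1* had the largest decrease of the 10 genes, while its fellow receptor *Kdr* and the angiopoietin receptor *Tek* did not pass the unadjusted limit. RefSeq promoter windows (GRCm38.p6) were matched for 5 of the 10 genes (*Tek*, *Tie1*, *Kdr*, *Flt1* and *Vegfa*, the last with 2 windows), and not for *Pecam1*, *Cdh5*, *Nos3*, *Jam2* and *Esam*. The 250 bases before the start are printed 5′ to 3′ on the gene's strand, from chr5:147726012-147726261 for *Flt1*, chr5:75978456-75978705 for *Kdr* and chr4:94739039-94739288 for *Tek*. Capitals mark GGAAG or its complement CTTCC, a longer form of GGAA, the core letters bound by ETS factors. Regulators of endothelial genes such as Erg and Fli1 belong to this family.
Flt1: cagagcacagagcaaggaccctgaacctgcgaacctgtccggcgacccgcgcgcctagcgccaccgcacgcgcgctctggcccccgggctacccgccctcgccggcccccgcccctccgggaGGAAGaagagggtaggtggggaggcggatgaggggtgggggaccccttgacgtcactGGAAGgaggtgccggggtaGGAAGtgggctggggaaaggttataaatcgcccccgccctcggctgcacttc
Kdr: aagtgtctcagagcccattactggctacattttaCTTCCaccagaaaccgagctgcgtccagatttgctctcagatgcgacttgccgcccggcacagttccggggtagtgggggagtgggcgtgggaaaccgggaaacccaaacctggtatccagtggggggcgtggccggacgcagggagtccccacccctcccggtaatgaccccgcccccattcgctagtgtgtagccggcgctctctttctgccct
Tek: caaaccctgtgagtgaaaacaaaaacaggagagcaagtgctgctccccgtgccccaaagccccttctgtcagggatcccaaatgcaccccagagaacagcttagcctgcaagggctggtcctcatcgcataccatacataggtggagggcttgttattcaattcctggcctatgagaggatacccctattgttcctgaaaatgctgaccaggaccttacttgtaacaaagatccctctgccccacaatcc

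GGAAG or CTTCC occurred 3 times before *Flt1*, 1 time before *Kdr*, 0 times before *Tek* and 1 time before *Vegfa*. The shorter core GGAA or TTCC was not counted. It also stands outside the capitals in the printed windows of *Flt1*, *Kdr* and *Tek*, so these counts do not cover all ETS cores. The window of *Kdr* reaches 3 bases into the gene as GENCODE places it. The *Tie1* window (212 of 250 bases) and the other *Vegfa* window (250 of 250 bases) lie in the gene by the positions given here and are not described. On both strands, 64.1% of the 32851 windows of this length held at least 1 such match, so a match is common and is a description only. The share of windows with 3 matches was not counted, and a link of these letters to the levels was not tested. GATAA or TTATC, the letters bound by GATA factors, was in 22.6% of all windows and, of these 4 genes, before *Vegfa*. ACGTG or CACGT, 1 form of the core letters of the hypoxia response element, was in 16.6% of all windows and before none of the 4. The form GCGTG was not counted and occurs in the printed window of *Kdr*. The window before *Flt1* had a GC content of 70.4%, that before *Kdr* 61.6% and that before *Tek* 51.2%.

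*Jam2*, on chromosome 16 from 84774123 to 84825928 on the plus strand, encodes a junctional adhesion molecule. It was at 18.9, 19.3 and 18.8 FPKM in WT mice and at 11.4, 10.9 and 10.5 FPKM in HrasG12V mice. Mice of each genotype lay close together, and 7.43 FPKM separated the groups. This gave a log2 fold change of -0.79 (standard error 0.14, 95% confidence interval -1.12 to -0.47, limma adjusted p = 0.288), and it moved only from -0.82 to -0.76 when single mice were dropped.

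*Cdh5* encodes VE-cadherin, the cadherin of endothelial adherens junctions, and lies on chromosome 8 from 104101625 to 104144511 on the plus strand. It was at 65.1, 67.5 and 59.1 FPKM in WT mice and at 36.6, 43.1 and 41.8 FPKM in HrasG12V mice. The groups were 16.0 FPKM apart, with mouse 2276 the lowest. This gave a log2 fold change of -0.66 (standard error 0.17, 95% confidence interval -1.08 to -0.24, limma adjusted p = 0.382), and *Cdh5* passed the unadjusted limit in all 6 fits that dropped 1 mouse.

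*Esam*, an adhesion molecule of endothelial tight junctions and platelets, lies on chromosome 9 from 37528078 to 37538319 on the plus strand. It was at 45.5, 41.3 and 39.2 FPKM in WT mice and at 37.4, 28.7 and 26.5 FPKM in HrasG12V mice. Only 1.76 FPKM separated mouse 2276 from the lowest WT mouse. The log2 fold change of -0.46 (95% confidence interval -0.93 to 0.02, limma adjusted p = 0.501) did not pass either limit, and without mouse 2276 it was -0.60 and passed the unadjusted limit.

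*Pecam1*, found on endothelial cells, platelets and leukocytes, lies on chromosome 11 from 106654217 to 106750628 on the minus strand. It was at 51.2, 51.7 and 39.8 FPKM in WT mice and at 36.1, 39.7 and 44.0 FPKM in HrasG12V mice. WT mouse 2281 lay within the HrasG12V range. The log2 fold change was -0.25 (95% confidence interval -0.71 to 0.22, limma adjusted p = 0.717).

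*Nos3*, the endothelial nitric oxide synthase, lies on chromosome 5 from 24364810 to 24384474 on the plus strand. It was at 6.66, 6.005 and 6.97 FPKM in WT mice and at 4.95, 4.39 and 4.51 FPKM in HrasG12V mice, and 1.05 FPKM separated the genotypes. For *Nos3* the log2 fold change was -0.49 (standard error 0.14, 95% confidence interval -0.82 to -0.16, limma adjusted p = 0.398), and *Nos3* no longer passed the unadjusted limit without WT mouse 2281. Exons of *Nos3* overlap *Atg9b* and *Gm15587* on the other strand, and no source used here says whether strand was used for the FPKM. *Atg9b* ranged from 0.255 to 0.373 FPKM in the WT group and from 0.186 to 0.536 FPKM in the HrasG12V group, so it was low beside *Nos3* in every library.

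**Figure D2:**
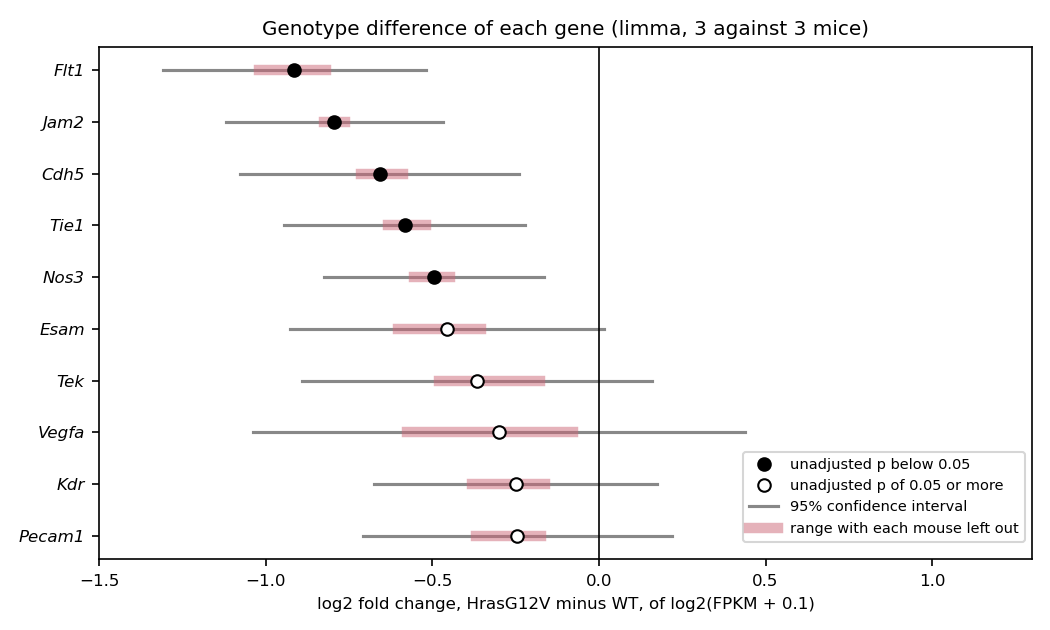
Log2 fold change (x axis, HrasG12V minus WT on the log2(FPKM + 0.1) scale) of each gene with its 95% confidence interval (grey) and the range over fits that each drop 1 mouse (red). All points lie left of 0, and the intervals of *Flt1*, *Jam2*, *Cdh5*, *Tie1* and *Nos3* (filled points, unadjusted p below 0.05) exclude it.

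Which HrasG12V mouse was lowest differed by gene. Relative to the WT mean, the median log2 difference over the 10 genes was -0.45 in mouse 2276, -0.55 in mouse 2278 and -0.59 in mouse 2279, and -0.10 to 0.12 in single WT mice. Mouse 2276 had the lowest HrasG12V value for 5 of the 10 genes, mouse 2278 for 2 and mouse 2279 for 3. *Flt1*, *Cdh5* and *Tek* were lowest in mouse 2276, at -1.11, -0.80 and -0.75 on the log2 scale, while *Vegfa*, *Esam* and *Jam2* were lowest in mouse 2279, at -0.74, -0.66 and -0.85. *Flt1*, *Jam2*, *Cdh5*, *Tie1* and *Nos3* were below every WT mouse in mouse 2276 too, the library with the highest FPKM sum, in which the B and T cell genes summed to 2.24 FPKM. With mouse 2276 as the sole HrasG12V library, assumed to vary like the WT libraries, their log2 fold changes were -1.11, -0.73, -0.80, -0.51 and -0.39, all past the unadjusted limit, as were 6312 of all genes (47.2%) in that fit.

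Of 3 other scalings, quantile normalization and median centring left these 5 genes past the unadjusted limit, and equal totals did not. When the total FPKM was made equal in all libraries, *Flt1* and *Jam2* still passed the unadjusted limit, and *Cdh5*, *Tie1* and *Nos3* no longer did, at log2 fold changes of -0.67, -0.60 and -0.50. In that fit 5.33% of all genes passed in either direction and 2.49% were lower. The totals include genes listed at 0 in some libraries and not in others, such as *Ckm*, at 7165 FPKM in mouse 2278 and at 0 elsewhere. They also include *Mir6236*, the gene with the highest FPKM in mouse 2276. It was at 65510 FPKM there, at 31984 FPKM in WT mouse 2277 and at 9399 to 16428 FPKM elsewhere. The part of single genes in the equal-totals result was not tested.

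Ratios within a mouse do not depend on the scaling of its library. They were chosen after the values were seen and were not tested. The FPKM of *Flt1* divided by that of *Kdr* was 0.891, 0.829 and 1.10 in WT mice and 0.544, 0.535 and 0.695 in HrasG12V mice. The genotypes did not overlap in this ratio, and its mean was 0.942 ± 0.145 in WT and 0.591 ± 0.0901 in HrasG12V muscle (SD, n = 3). *Pecam1* divided by *Cdh5* was 0.786, 0.766 and 0.673 in WT mice and 0.986, 0.922 and 1.05 in HrasG12V mice, and *Kdr* divided by *Cdh5* was 0.327, 0.297 and 0.266 against 0.409, 0.398 and 0.371. In both ratios every HrasG12V mouse was above every WT mouse. *Tie1* divided by *Tek* was 1.90, 1.94 and 2.20 in WT mice and 2.37, 1.39 and 1.57 in HrasG12V mice, where mouse 2276 lay above and the other HrasG12V mice below the WT mice. *Jam2* to *Esam*, *Jam2* to *Pecam1* and *Flt1* to *Pecam1* were lower in every HrasG12V mouse, and *Jam2*, *Nos3*, *Tie1*, *Tek*, *Flt1*, *Esam* and *Vegfa* relative to *Cdh5* overlapped between genotypes. *Tie1* and *Nos3* relative to *Pecam1*, and *Vegfa* relative to *Flt1* and to *Kdr*, overlapped as well.

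**Figure D3:**
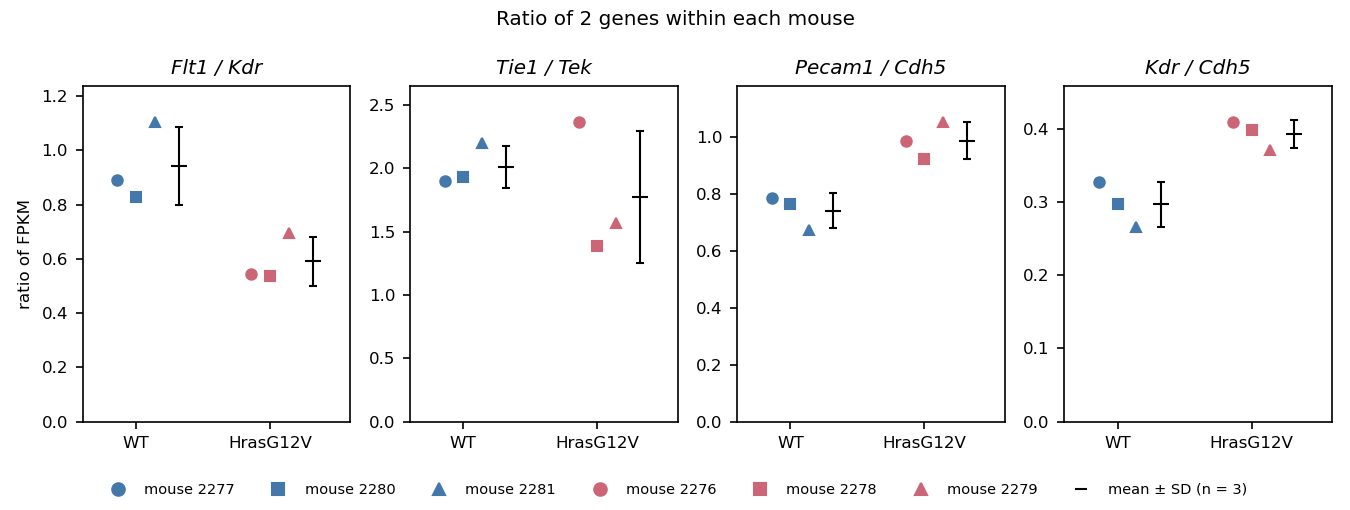
Ratio of the FPKM of 2 genes (y axis, linear, from 0) within each of 3 WT and 3 HrasG12V mice, with the mean ± SD (n = 3). *Flt1* to *Kdr* was lower in every HrasG12V mouse, *Pecam1* to *Cdh5* and *Kdr* to *Cdh5* were higher in every HrasG12V mouse, and *Tie1* to *Tek* overlapped.

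Among 24 other endothelial genes, 7 were lower and 2 were higher in HrasG12V muscle at an unadjusted limma p below 0.05, against 10.2% of all genes tested in either direction, and none passed after adjustment. The median log2 fold change of the 24 was -0.20. *Sox7*, a transcription factor of the endothelium, was at 6.44, 5.32 and 5.33 FPKM in WT mice and at 3.02, 3.14 and 3.21 FPKM in HrasG12V mice (log2 fold change -0.84 with a standard error of 0.14, limma adjusted p = 0.288). The adhesion receptors *Eltd1* and *Gpr116* were also lower, with log2 fold changes of -0.79 and -0.88 (limma adjusted p = 0.389 and 0.422), and *Gpr116* lost the unadjusted call without WT mouse 2277. *Ptprb*, a phosphatase that acts on Cdh5 and Tek, had a log2 fold change of -0.76, the sphingosine phosphate receptor *S1pr1* -0.67, *Sox17* -0.55 and the guidance receptor *Robo4* -0.54. Each of these 4 lost its unadjusted call without WT mouse 2277, and *Sox17* kept it in 1 of the 6 fits that dropped a mouse.

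*Plvap*, which forms the diaphragms of endothelial openings, went the other way. It was at 6.75, 9.21 and 6.40 FPKM in WT mice and at 11.2, 20.1 and 22.5 FPKM in HrasG12V mice (log2 fold change 1.21 with a standard error of 0.30, limma adjusted p = 0.382). *Glycam1* and *Ccl21a*, made by the venules and stroma of lymph nodes, were high in mice 2278 and 2279. *Glycam1* had 192 and 294 FPKM there and 0.0537 to 0.242 FPKM in the other 4 libraries, and *Ccl21a* had 21.0 and 24.7 FPKM there and 1.38 to 5.81 FPKM elsewhere. Of the 8 genes of lymphatic vessels and high venules, 7 were tested and 2 were higher at an unadjusted p below 0.05, beside 5.18% of all genes tested. The list summed to 11.5 to 19.1 FPKM in WT mice and to 14.1, 237 and 339 FPKM in mice 2276, 2278 and 2279, and its part in the *Plvap* result was not tested. With mouse 2276 as the sole HrasG12V library the log2 fold change of *Plvap* was 0.60 and did not pass the unadjusted limit. *Ecscr*, an endothelial surface protein, was at 6.42, 7.66 and 6.79 FPKM in WT mice and at 13.7, 9.56 and 8.62 FPKM in HrasG12V mice (log2 fold change 0.58, limma adjusted p = 0.469), highest in mouse 2276, and lost its unadjusted call without any 1 of the WT mice. *Cd34*, the gene with the highest mean over all 6 mice among the 24 (*Gpr116* was higher in WT and *Egfl7* in HrasG12V muscle), had a log2 fold change of -0.23 (limma adjusted p = 0.863).

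**Figure D4:**
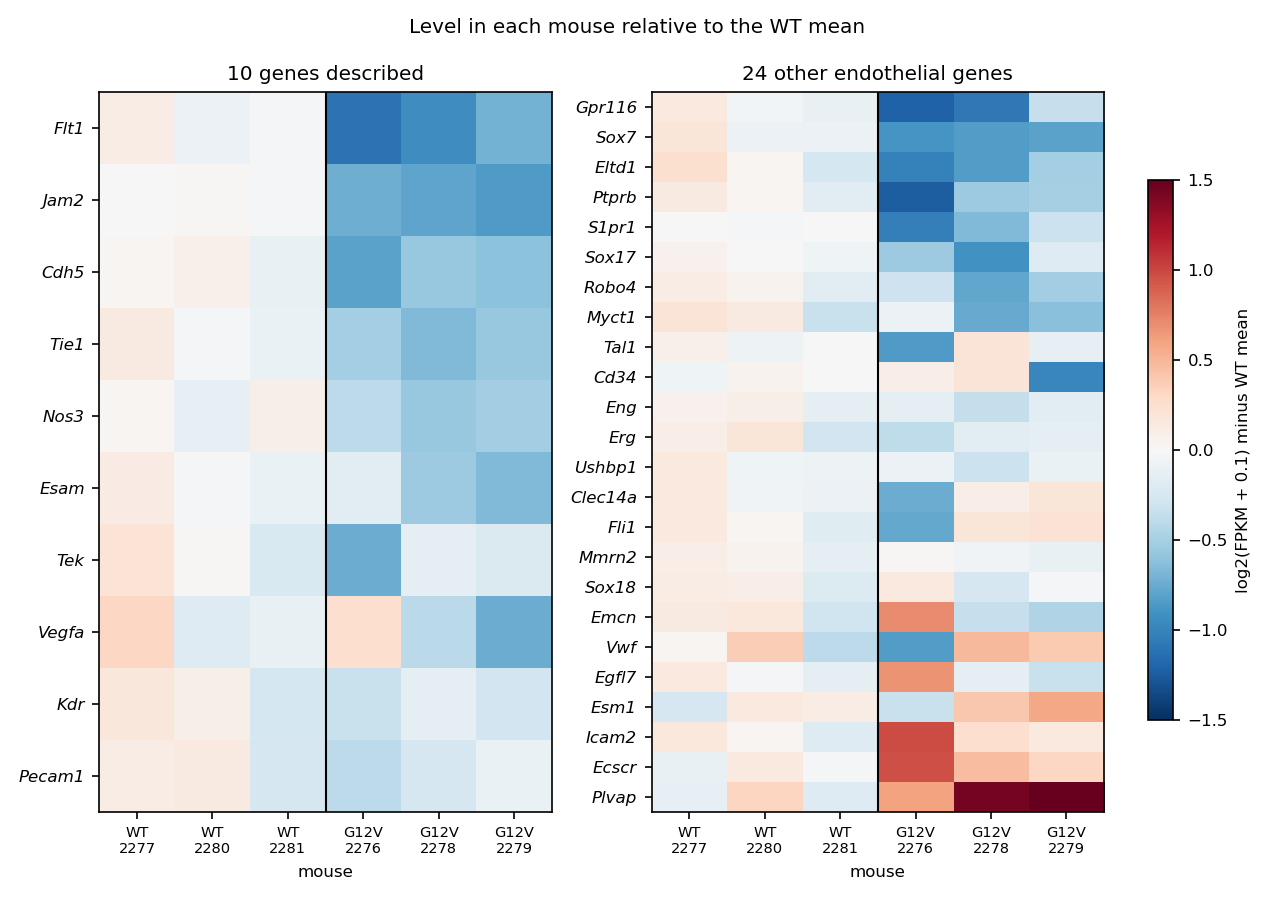
Colour gives log2(FPKM + 0.1) minus the WT mean for each gene (rows) and mouse (columns, 3 WT left of the line and 3 HrasG12V right of it), for the 10 genes described and 24 other endothelial genes, ordered by log2 fold change. Blue fills the HrasG12V columns of the 10 genes except *Vegfa* in mouse 2276, while the other endothelial genes run from blue (*Gpr116*, *Sox7*) to red (*Ecscr*, *Plvap*).

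Of 20 other ligands, receptors and inhibitors of angiogenesis, 18 were tested, with *Angpt4* and *Hgf* below the filter. *Angpt1*, the activating ligand of Tek, was the sole gene of these 18 past an unadjusted limma p of 0.05, against 10.2% of all genes tested. It was at 5.65, 5.45 and 5.84 FPKM in WT mice and at 3.29, 4.62 and 3.07 FPKM in HrasG12V mice (log2 fold change -0.63 with a standard error of 0.19, limma adjusted p = 0.412), and it lost the unadjusted call without WT mouse 2281. *Angpt2*, which competes with Angpt1 for Tek, ranged from 1.28 to 1.53 FPKM in the WT group and was at 1.32, 2.58 and 2.33 FPKM in mice 2276, 2278 and 2279 (log2 fold change 0.50, limma adjusted p = 0.603). The VEGF ligand *Vegfb* was the most abundant of the list. It ranged from 77.4 to 96.3 FPKM in the WT group and was at 165, 43.8 and 52.2 FPKM in HrasG12V mice, far apart within the genotype (log2 fold change -0.26, limma adjusted p = 0.902), and like *Vegfa* it was highest among HrasG12V mice in mouse 2276. The median log2 fold change of the 18 was -0.28.

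Of 16 Notch and BMP genes, 15 were tested and 2 were lower at an unadjusted limma p below 0.05, against 4.99% of all genes tested. *Notch4*, an endothelial Notch receptor, stood at 7.49, 7.06 and 6.46 FPKM in the WT group and at 4.76, 4.58 and 5.57 FPKM in the HrasG12V group (log2 fold change -0.49, limma adjusted p = 0.425), and the ligand *Bmp6* had a log2 fold change of -0.52 (limma adjusted p = 0.477). *Notch4* and *Bmp6* lost their calls without WT mouse 2277 and without WT mouse 2280, and *Bmp6* also without HrasG12V mouse 2278 or 2279. *Id3*, the most abundant of the list, had a log2 fold change of 0.09 (limma adjusted p = 0.902).

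Of 16 further junction and adhesion genes, 14 were tested, 7 had a negative and 7 a positive log2 fold change, and 1 passed an unadjusted limma p of 0.05, against 10.2% of all genes tested. This was *Vcam1*, an adhesion molecule for leukocytes, which stood at 8.64 and 9.88 FPKM in mice 2278 and 2279, those with the B and T cell transcripts, at 3.35 FPKM in mouse 2276 and at 2.93 to 3.36 FPKM in the WT group (log2 fold change 1.05, limma adjusted p = 0.481). *Vcam1* kept the call in 1 of the 6 fits with a mouse left out. *Ctnnb1*, the catenin that binds Cdh5 and the most abundant gene of the list, ranged from 105 to 113 FPKM in the WT group and from 78.9 to 100.1 FPKM in the HrasG12V group (log2 fold change -0.29, limma adjusted p = 0.666), and *Cldn5*, the claudin of endothelial tight junctions, had a log2 fold change of 0.03 (limma adjusted p = 0.981).

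Of 12 genes of nitric oxide signalling, all were tested and 2 were lower at an unadjusted limma p below 0.05, again beside 4.99% of all genes tested. *Nos1*, the nitric oxide synthase of the muscle fibre, was at 5.27, 5.06 and 7.54 FPKM in WT mice and at 0.470, 0.521 and 1.48 FPKM in HrasG12V mice (log2 fold change -2.85 with a standard error of 0.42, limma adjusted p = 0.261). *Prkg1*, the kinase that acts downstream of nitric oxide in smooth muscle, was at 13.6, 11.2 and 9.43 FPKM in WT mice and at 4.03, 5.35 and 6.73 FPKM in HrasG12V mice (log2 fold change -1.08 with a standard error of 0.24, limma adjusted p = 0.345). *Cav1*, which binds Nos3 in caveolae, was the most abundant of the list, at 151 to 167 FPKM in WT mice and 107 to 136 FPKM in HrasG12V mice (log2 fold change -0.47, limma adjusted p = 0.519). In 5 of the 12 genes every HrasG12V mouse was below every WT mouse, where 10.4% of all genes tested held this order.

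Of 13 genes of the hypoxia response, which controls *Vegfa*, 0 passed an unadjusted limma p of 0.05, beside 10.2% of all genes tested. *Epas1*, the hypoxia factor of the endothelium, ranged from 66.5 to 88.2 FPKM in the WT group and from 45.8 to 62.9 FPKM in the HrasG12V group, with no overlap (log2 fold change -0.52, limma adjusted p = 0.501). *Bnip3*, the most abundant of the list, ranged from 83.0 to 300.0 FPKM among HrasG12V mice and from 134 to 225 FPKM among WT mice.

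Of 10 genes of capillary fat and water transport, 3 were lower at an unadjusted limma p below 0.05, beside 4.99% of all genes tested. The water and glycerol channel *Aqp7* had a log2 fold change of -0.69 (limma adjusted p = 0.398), the capillary carbonic anhydrase *Car4* -0.94 (adjusted p = 0.477) and the fatty acid receptor *Cd36*, which muscle fibres and adipocytes also express, -0.84 (adjusted p = 0.483). When single mice were dropped, *Aqp7* passed in 6 of 6 fits, *Car4* in 3 and *Cd36* in 2. *Fabp4*, of capillaries and adipocytes, was the most abundant, at 395 to 678 FPKM in WT mice and 713 to 769 FPKM in HrasG12V mice (log2 fold change 0.39, limma adjusted p = 0.727).

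Mural cells, the pericytes and smooth muscle that wrap vessels, had 2 of 12 listed genes lower at an unadjusted limma p below 0.05, beside 4.99% of all genes tested. *Rgs5*, a pericyte gene, was at 216, 217 and 189 FPKM in WT mice and at 63.9, 132 and 109 FPKM in HrasG12V mice (log2 fold change -1.09 with a standard error of 0.31, limma adjusted p = 0.403). *Notch3* had a log2 fold change of -0.45 (limma adjusted p = 0.483) and passed in 2 of the 6 fits that dropped a mouse. Of the 12 mural genes, 7 had a negative and 5 a positive log2 fold change. *Des*, the most abundant gene of the list and also made by muscle fibres, had a log2 fold change of 0.09 (limma adjusted p = 0.967).

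**Figure D5:**
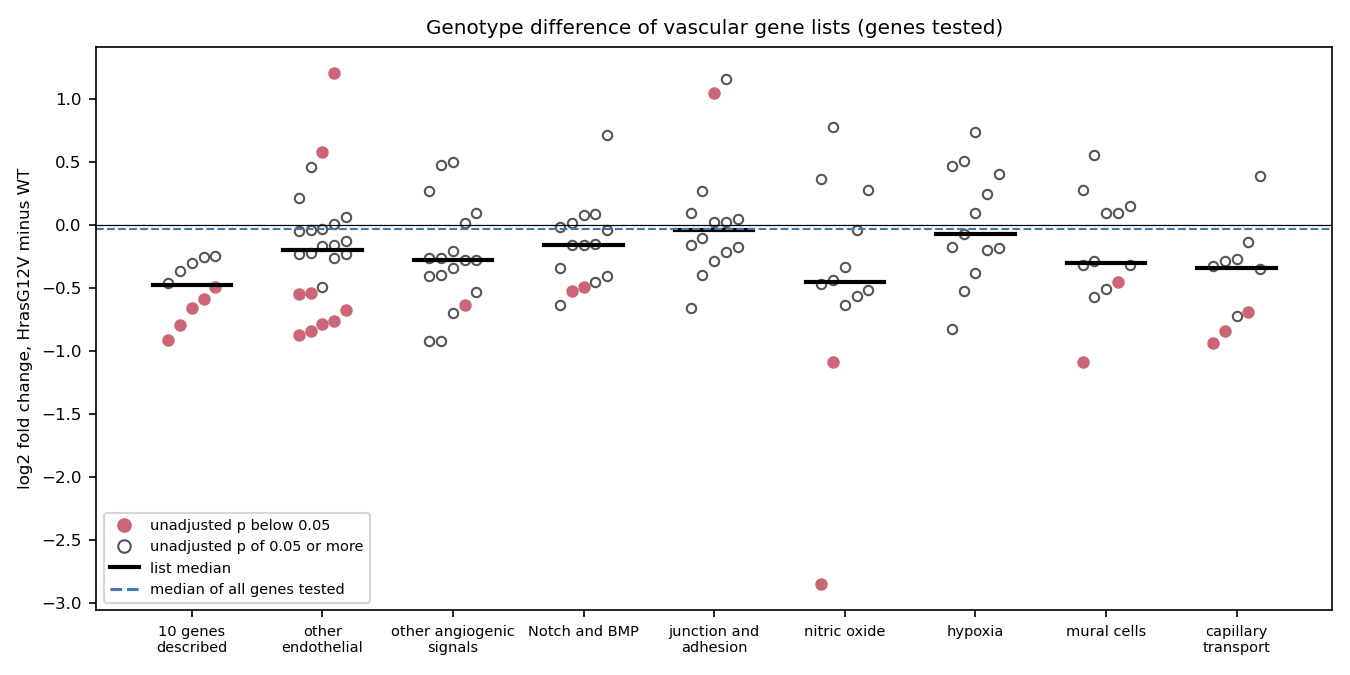
Log2 fold change (y axis, HrasG12V minus WT) of each gene tested, in the 10 genes described and 8 further vascular lists, with list medians (black bars) and the median of all genes tested (dashed line, -0.03). Filled points have an unadjusted limma p below 0.05, and of these lists the other endothelial genes alone hold filled points on both sides of 0.

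Markers of other cells also moved between libraries. Of 10 lymphocyte genes 7 were higher at an unadjusted limma p below 0.05, beside 5.18% of all genes tested, and their levels came from mice 2278 and 2279. The 6 adipocyte genes (2 higher) summed to 11.8 to 62.2 FPKM in WT mice and to 58.2, 261 and 199 FPKM in mice 2276, 2278 and 2279. The 8 macrophage genes (1 higher) summed to 57.4 to 69.9 and 63.9 to 117 FPKM, the 6 platelet genes (4 tested, 0 past the limit) to 10.4 to 12.4 and 12.4 to 23.5 FPKM and the 6 erythroid genes (1 higher) to 244 to 278 and 228 to 765 FPKM in WT and HrasG12V mice. The 6 fibroblast genes (0 past the limit) summed to 1351 to 2566 and 633 to 2366 FPKM, and of 8 myofiber genes 6 were tested and 0 passed. Abundant genes of these lists in WT muscle were *Cd79b*, *Pdpn*, *Cfd*, *C1qa*, *Pf4*, *Hba-a1*, *Col1a2* and *Pvalb*. *Pecam1* and *Esam* are also made by platelets or leukocytes, and the part of these cells in their values was not tested.

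The profile of *Cdh5* over the 6 mice was compared with that of 12177 other genes with a mean of at least 1 FPKM, by the mean absolute difference of the log2 differences from the WT mean. *Tmed5* (0.04), *Cnnm2* (0.06), *Pcnx* (0.07), *Lhx6* (0.07) and *Mtmr10* (0.07) were nearest. *Tie1* came 37th, *Jam2* 65th, *Nos3* 167th, *Esam* 178th, *Flt1* 392nd, *Tek* 642nd, *Pecam1* 1384th, *Kdr* 1445th and *Vegfa* 3072nd. Of the other endothelial genes, *Ptprb* (77th), *S1pr1* (133rd) and *Sox7* (163rd) were the nearest. The farthest were *Vwf* (7292nd), *Icam2* (10275th), *Ecscr* (10735th) and *Plvap* (11493rd). The measure includes the genotype difference itself, so genes that were lower in HrasG12V muscle by a similar amount come near *Cdh5*.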

How the data were processed

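Gastrocnemius muscle of 3 HrasG12V and 3 WT mice was profiled by mRNA sequencing. Per the labels and methods, the authors aligned single-end reads from a stranded kit with TopHat, estimated transcripts with Cufflinks and scaled libraries with Cuffnorm, on GRCm38 (mm10). No source used here gives their versions or the annotation. The deposited values are FPKM, 1 per gene symbol and library. Steps of whole reads were looked for among low values: the fullest narrow interval of their ratios held 1.56% to 8.56% of genes per pair of libraries, so no reads were recovered and no count model was used.

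From these, log2(FPKM + 0.1) of 13359 genes with a mean of at least 0.5 FPKM entered a linear model (limma 3.58.1, R 4.3.3, moderated with a mean trend, no covariate), with Benjamini-Hochberg adjustment over all genes tested and a limit of 0.05 on the unadjusted and on the adjusted p. With n = 3, p-values measure the spread between these mice only. Fold changes are on this scale, which understates the change of low genes. The labels do not give sex or litter of single mice. The step was tested on simulated data with 200 of 13359 genes changed by 2 on the log2 scale, of which 185 to 196 were recovered at an unadjusted p below 0.05 in 5 runs. At most 5.49% of the unchanged genes were called. Each gene had the same simulated spread in all mice, and the change was larger than that of any of the 10 genes. The recovery of changes of their size is thus unknown. Members and gene lists (197 genes in 18 lists, 6 found by synonym; 1 list is not reported here) were chosen with earlier results of these data known, and a list the study drew from these libraries holds *Flt1*, *Jam2*, *Cdh5* and *Tie1*. Named are all 10 genes, up to 4 genes with the smallest unadjusted p below 0.05 and the most abundant gene of each list, and the 5 genes nearest *Cdh5*. Other named genes, among them *Ptprb*, *S1pr1*, *Sox17*, *Robo4*, *Ecscr*, *Angpt2*, *Cldn5* and *Epas1*, were picked with their values in view. As alternatives, other pseudocounts, filters, scalings, moderation, array weights and fits without single mice were run. Positions came from GENCODE vM21, promoters from RefSeq (GRCm38.p6). Figures were made with matplotlib 3.10.9.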

Additional observations from a re-analysis of the deposited data

How the results depend on the processing

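The count of 5 of the 10 genes lower at the unadjusted p was 4 to 7 in fits without 1 mouse (7 without mouse 2276, where 17.4% of all genes tested were lower), and 2 with all libraries set to 1 total FPKM. The count past the adjusted p, 0, was 0 to 6 in fits without 1 mouse (6 without mouse 2276, where 9.66% of all genes passed, and 0 in the other fits), 2 with array weights (4.28% of all genes), which gave mouse 2276 a weight of 0.0933 against 0.730 to 3.29 elsewhere, and 3 with mouse 2276 as the sole HrasG12V library (31.4% of all genes). *Vegfa* reversed to 0.25 in this last fit. *Esam* had an unadjusted p below 0.05 with no filter, quantile normalization, no moderation, array weights and without mouse 2276. Without single mice, where 4.54% (without WT mouse 2281) to 29.8% (without mouse 2276) of all genes passed, the numbers past the unadjusted p were 3 to 9 for other endothelial genes, 1 to 4 for other angiogenic signals, 0 to 3 for Notch and BMP, 0 to 4 for junction and adhesion, 2 to 5 for nitric oxide, 0 to 3 for hypoxia and 1 to 5 for capillary transport. Equal totals, with 5.33% of all genes past the limit, gave 2 for other endothelial, 0 for other angiogenic, 1 for Notch and BMP and 0 for junction genes. Array weights, with which 22.8% of all genes passed, gave 4 for other angiogenic, 3 for junction, 2 for hypoxia and 6 for capillary genes. Quantile normalization (12.7% of all genes) gave 2 for junction, 4 for nitric oxide and 1 for hypoxia genes. Without moderation (9.86% of all genes) there were 1 for Notch and BMP, 4 for nitric oxide, 2 for hypoxia and 1 for capillary genes, and with no filter (9.34% of all genes) 2 for hypoxia. Mouse 2276 as the sole HrasG12V library gave 9 for other angiogenic, 6 for Notch and BMP, 5 for junction, 9 for nitric oxide, 9 for hypoxia and 5 for capillary genes, in a fit where 47.2% of all genes passed. The cause of these moves was not tested. No paired analysis was possible because the labels give no litter for single mice and the mice share no numbers between genotypes. The reads behind single values are unknown, so the spread of 3 mice per genotype limits every value.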
